A study of Homo sapiens with 18 samples.

Results

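SRF (serum response factor) and 8 genes for proteins that bind SRF or its partners were followed through 18 RNA-seq libraries of MSC-hTERT, a human mesenchymal stem cell line immortalized with telomerase. The 9 genes are SRF, MRTFA, MRTFB, MYOCD, ELK1, ELK3, ELK4, FHL2 and SCAI. They were taken by name as known members of this regulatory system, though with earlier results of these data known. They are 9 of the 61487 gene identifiers in the count table, and all 9 were among the 18544 genes with enough counts to be tested.

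The 6 groups of 3 libraries, numbered 1 to 3, differ in the construct that the cells expressed. One is pMSCV, a retroviral vector name read here as the empty control, and one is SRF. The other 4 carry fusions of SRF to a partner gene and are labelled SRF-FOXO1, SRF-RELA, SRF-PDGFRB and SRF-ICA1L. Every group shares the telomerase-immortalized line and a growth medium with serum, FGF-2, ascorbic acid and heparin, and the labels name no serum starvation. FOXO1 and RELA are transcription factors, PDGFRB is a growth factor receptor and ICA1L is a protein related to the islet autoantigen ICA1. The labels do not say whether the 3 libraries of a group came from separate cultures, so p-values measure only the spread between these libraries.

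SRF is a MADS box transcription factor that binds a short DNA element, the CArG box, made of CC, a run of A and T bases, and GG. It is a weak activator alone and works through 2 families of cofactors that compete for it. The myocardin family (MYOCD, MRTFA and MRTFB) drives genes of the cytoskeleton and smooth muscle, and the MRTFs are held in the cytoplasm by monomeric actin until actin assembles into filaments. The ternary complex factors (ELK1, ELK3 and ELK4) are ETS family proteins that are phosphorylated by ERK and related kinases, and they drive immediate early genes such as FOS and EGR1. FHL2 is a LIM domain protein that binds SRF and is itself encoded by an SRF target gene, and SCAI represses MRTF activity. MRTFs and ELKs are controlled largely by where the protein is and by phosphorylation, which RNA levels do not show.

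The promoters of 2 of the members carry the CArG box itself, and these sequences are shown because they place SRF and FHL2 among the possible targets of the factor under study. RefSeq windows from 250 bases before to 50 after a start site (GRCh38.p14) matched 8 of the 9 members, all but MYOCD, with 18 windows. They were searched on both strands for the CArG box (CC, 6 bases that are A or T, then GG) and for the ETS motif CCGGAAGT. SRF held 2 CArG boxes, in capitals in its 100 bases before the start site, and FHL2 held 2, an outer box that lies in the windows of 2 start sites and an inner box, inside an annotated exon of FHL2, in the window of another. ELK4 held the ETS motif.
SRF promoter, chr6:43171169-43171268, plus strand: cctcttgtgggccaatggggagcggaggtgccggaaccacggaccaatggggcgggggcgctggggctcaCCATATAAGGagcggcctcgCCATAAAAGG
FHL2, outer box, chr2:105438595-105438624, minus strand: aatctggagaCCTTAAAAGGcacgtgggag
FHL2, inner box, chr2:105399091-105399120, minus strand: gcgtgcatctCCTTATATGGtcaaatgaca
ELK4, chr1:205632016-205632043, minus strand: agcccctcccCCGGAAGTgacgtgtagc
Over all genes with a window, 438 of 27305 (1.6%) held a CArG box and 1351 (4.95%) held CCGGAAGT. A match describes these letters only, and was not tested as a binding site.

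Library totals ran from 19362319 to 29806771 counts. Levels are given as CPM, a gene's count divided by its library's total on the usual scale of that unit. The mesenchymal markers THY1 (36.8 to 239 CPM), NT5E (250.2 to 739 CPM) and ENG (116 to 197 CPM) were present in all libraries, and THY1 was called higher in the libraries labelled SRF-FOXO1 and in SRF-ICA1L than in pMSCV (edgeR adjusted p 0.0410 and 0.00683, and 0.205 and 0.0617 at most on leaving out 1 library). The summed level of 8 markers of blood, endothelial and epithelial cells was 10.8 to 30.6 CPM, most of it PECAM1 (4.31 to 27.96 CPM), and its ranges in the 6 groups overlapped except that the libraries labelled SRF-FOXO1 and those of SRF-ICA1L (at most 15.5 CPM) lay below those of SRF (at least 17.3 CPM). Single markers did not all follow that sum. CD34 averaged 2.69 CPM in SRF-ICA1L and 0.956 CPM in pMSCV, VWF 0.979 and 0.234 CPM, and CDH1, at 0 in 6 of the 18 libraries, 0.334 and 0.0143 CPM. With the library number as a term, but not by group alone, edgeR called CD34, VWF and CDH1 higher in SRF-ICA1L than in pMSCV (adjusted p 0.0114, 0.0221 and 0.0338), and CD34 and CDH1 higher in the libraries labelled SRF-FOXO1 (adjusted p 0.0394 and 0.0102). The part of these markers in the results was not tested. Of the partner genes, ICA1L and RELA were called higher under their own fusions and PDGFRB was not (log2 fold change 0.73, edgeR adjusted p 1). FOXO1 was no higher in the libraries labelled SRF-FOXO1 (log2 fold change -0.30, edgeR adjusted p 0.727), so that gene does not check their label, and SRF-FOXO1 below means the libraries so labelled.

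SRF (ENSG00000112658, chromosome 6, 43171299 to 43181507 on the plus strand, GRCh38) was the member that the constructs changed. Counts of SRF hold native and construct reads together, so its level checks the labels and does not give the output of the native gene. In pMSCV the libraries numbered 1, 2 and 3 held 61.1, 64.4 and 57.3 CPM. In SRF they held 1036, 1122 and 678 CPM. Every SRF library lay above every library of the other groups.

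Among the fusions, SRF-RELA had 326, 324 and 328 CPM and SRF-ICA1L 274, 277 and 274 CPM. These groups were tight in this unit, with SDs of 2.25 and 1.57 CPM. With the TMM scaling factors that the fits use, the SDs were 7.11 and 12.8 CPM. SRF-PDGFRB had 337, 160 and 261 CPM (SD 88.9), a range that takes in all libraries of SRF-ICA1L and of SRF-RELA. The libraries labelled SRF-FOXO1 had 151, 211 and 183 CPM and overlapped SRF-PDGFRB only.

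**Figure D1:**
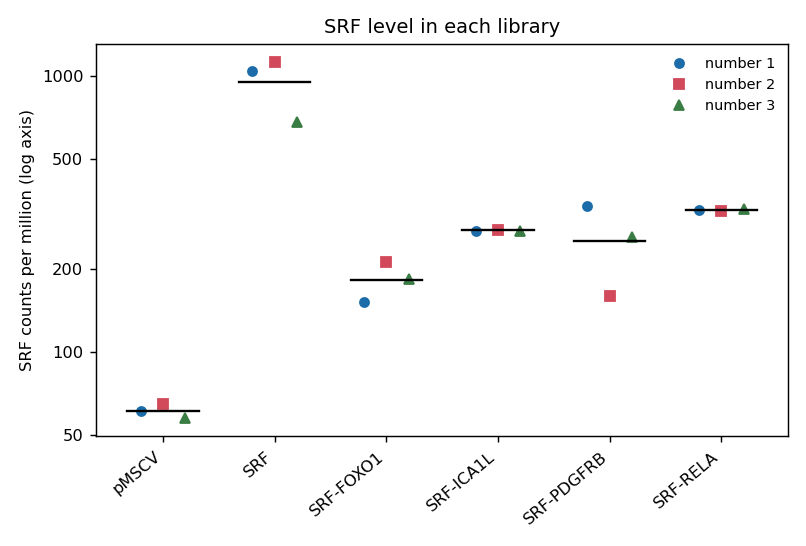
SRF level (CPM, log axis) in each of the 18 libraries by group; points are libraries marked by number and lines are group means. Vector libraries sit at 57.3 to 64.4, fusion libraries between 151 and 337, and SRF libraries between 678 and 1122.

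Against pMSCV, SRF was called higher under each of the 5 constructs, and it was higher in 3 of 3 same-numbered pairs of libraries each time. In SRF the log2 fold change was 3.99 (edgeR adjusted p 8.06e-07, SE 0.25), where 0.027% of tested genes were called. In SRF-FOXO1 it was 1.66 (edgeR adjusted p 0.00511, SE 0.23) with 0.928% called, and in SRF-ICA1L 2.28 (edgeR adjusted p 0.000313, SE 0.24) with 0.469% called. SRF-PDGFRB was at 2.04 (edgeR adjusted p 0.00177, SE 0.23) and SRF-RELA at 2.47 (edgeR adjusted p 0.000160, SE 0.24), against 0.0324% and 0.183% of genes called. The mean of the 4 fusions was 2.12 above pMSCV (edgeR adjusted p 0.000435, SE 0.21), where 0.0485% were called. No other member was called in any of these 6 comparisons, so 1 of 9 members passed in each. Without pMSCV replicate 1 the call in SRF-FOXO1 was lost (edgeR adjusted p 0.0623). When only the 2 groups compared were in the fit, the call in SRF-PDGFRB was lost (edgeR adjusted p 0.306).

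Each fusion had a lower SRF CPM than the SRF group. The part of SRF that each construct holds was not examined, so these levels do not count transcripts on the same scale. SRF-FOXO1 stood at a log2 fold change of -2.32 (edgeR adjusted p 0.000560, SE 0.24) and SRF-ICA1L at -1.70 (edgeR adjusted p 0.00157, SE 0.23). SRF-PDGFRB stood at -1.94 (edgeR adjusted p 0.00319, SE 0.23) and SRF-RELA at -1.51 (edgeR adjusted p 0.00881, SE 0.23). The mean of the 4 fusions stood at -1.87 (edgeR adjusted p 5.95e-05, SE 0.16). The shares of tested genes called in these comparisons were 1.36%, 0.782%, 0.146%, 0.388% and 0.717%, and SRF was again the 1 member of 9. The call in SRF-RELA was lost without SRF replicate 1 (edgeR adjusted p 0.05004), without SRF replicate 2 (0.0528) or without SRF-RELA replicate 2 (0.0509), and the calls in SRF-RELA and SRF-PDGFRB were lost without the 6 libraries numbered 2 (0.0788 and 0.0996). In a fit of only the groups compared, the calls in SRF-FOXO1, SRF-PDGFRB and SRF-RELA were lost too (edgeR adjusted p 0.0700, 0.180 and 0.0859).

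The mean order was SRF, SRF-RELA, SRF-ICA1L, SRF-PDGFRB, SRF-FOXO1 and pMSCV, and no neighbouring fusions in that order were called apart, nor any other of the 6 pairs of fusions. The libraries of SRF-RELA and SRF-ICA1L did not overlap, but their gap was small. The widest gap, SRF-FOXO1 less SRF-RELA, was -0.81 on the log2 scale (95% interval -1.31 to -0.32, edgeR adjusted p 0.468). SRF-ICA1L less SRF-RELA was -0.19 (95% interval -0.68 to 0.30, edgeR adjusted p 0.999). The missed threshold does not show that the fusions produced equal SRF. Of all tested genes, SRF-FOXO1 had 0.027% called against SRF-ICA1L, 0.717% against SRF-PDGFRB and 0.00539% against SRF-RELA. SRF-ICA1L had 0.82% called against SRF-PDGFRB and 0.0108% against SRF-RELA, and 0.162% were called between SRF-PDGFRB and SRF-RELA.

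None of the 8 cofactor genes was called between groups in the fit by group alone. In 48 tests against pMSCV (the 5 constructs and the mean of the 4 fusions), 0 were called by edgeR, 2 had an unadjusted p under 0.05, and DESeq2 called 0. In 40 tests against SRF and 48 between fusions, edgeR and DESeq2 likewise called 0, and 1 in each set had an unadjusted p under 0.05. For the 7 cofactors other than MYOCD, the 35 log2 fold changes of the constructs against pMSCV lay between -0.29 and 0.45. Their 95% intervals lay within -0.67 and 0.82. The ratios of mean CPM were 0.759 to 1.27, a different scale, since CPM leaves out the TMM scaling factors that the fits use. Over the same comparisons SRF had log2 fold changes of 1.66 to 3.99.

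**Figure D2:**
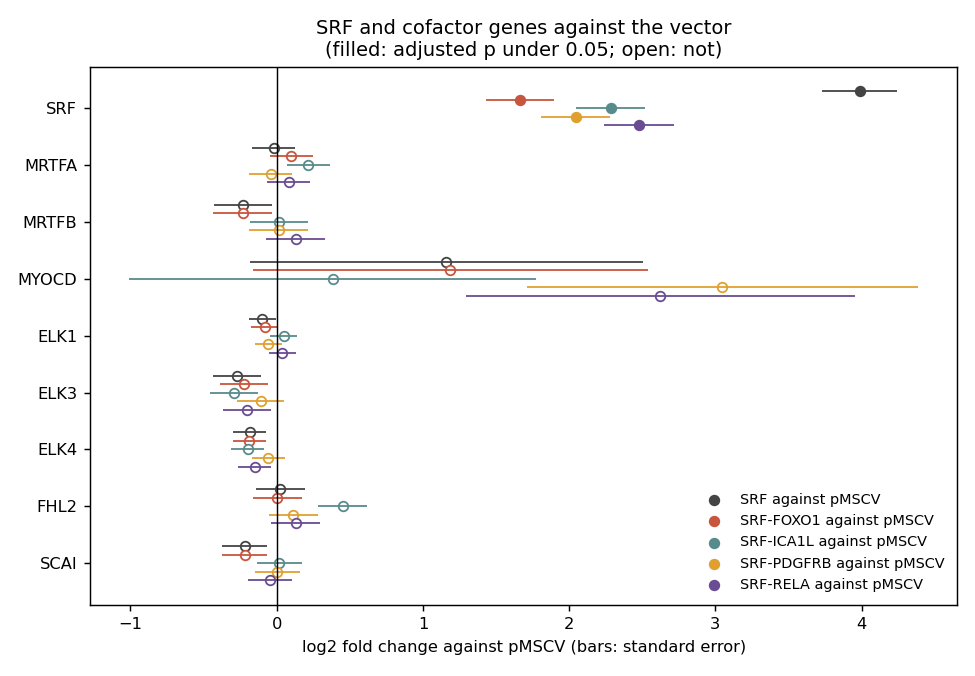
Log2 fold change of the 9 members against pMSCV in each of the 5 constructs, with standard errors as bars; filled points have an edgeR adjusted p under 0.05. The SRF points are filled at 1.66 to 3.99, and the points of all 8 cofactors are open.

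Ranges of CPM that did not overlap those of pMSCV were found for 1 of the 8 cofactors in SRF (ELK4), 3 in SRF-FOXO1 (ELK1, ELK3 and SCAI), 1 in SRF-ICA1L (FHL2), 0 in SRF-PDGFRB and 1 in SRF-RELA (ELK4). Over all tested genes the shares were 10.1%, 19.9%, 21.7%, 9.93% and 14.9%. With 8 genes, such counts cannot be set apart from those shares. These ranges used CPM by library totals. With CPM divided by the TMM scaling factors of the fits, ELK1 and SCAI in SRF-FOXO1 overlapped pMSCV. So did ELK4 in SRF and in SRF-RELA.

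To compare the genes with one another, CPM was divided by the length of all exons of the gene in GENCODE 29. In pMSCV, ELK3 was the highest at 34.2 ± 2.86 CPM per kb (SD, n = 3). FHL2 (16.4 ± 2.54), SRF (14.5 ± 0.85) and ELK1 (14.1 ± 0.88) came next and their order changed from library to library. ELK4 (8.99 ± 0.61), MRTFA (4.93 ± 0.62), MRTFB (2.17 ± 0.24), SCAI (1.42 ± 0.19) and MYOCD (0.0876 ± 0.0682) followed. On this scale the ELK genes were thus above the MRTF genes in every pMSCV library. SRF took first place in all 15 libraries with a construct, where its reads come only in part from the full gene, and MYOCD was last in 16 of 18 libraries.

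**Figure D3:**
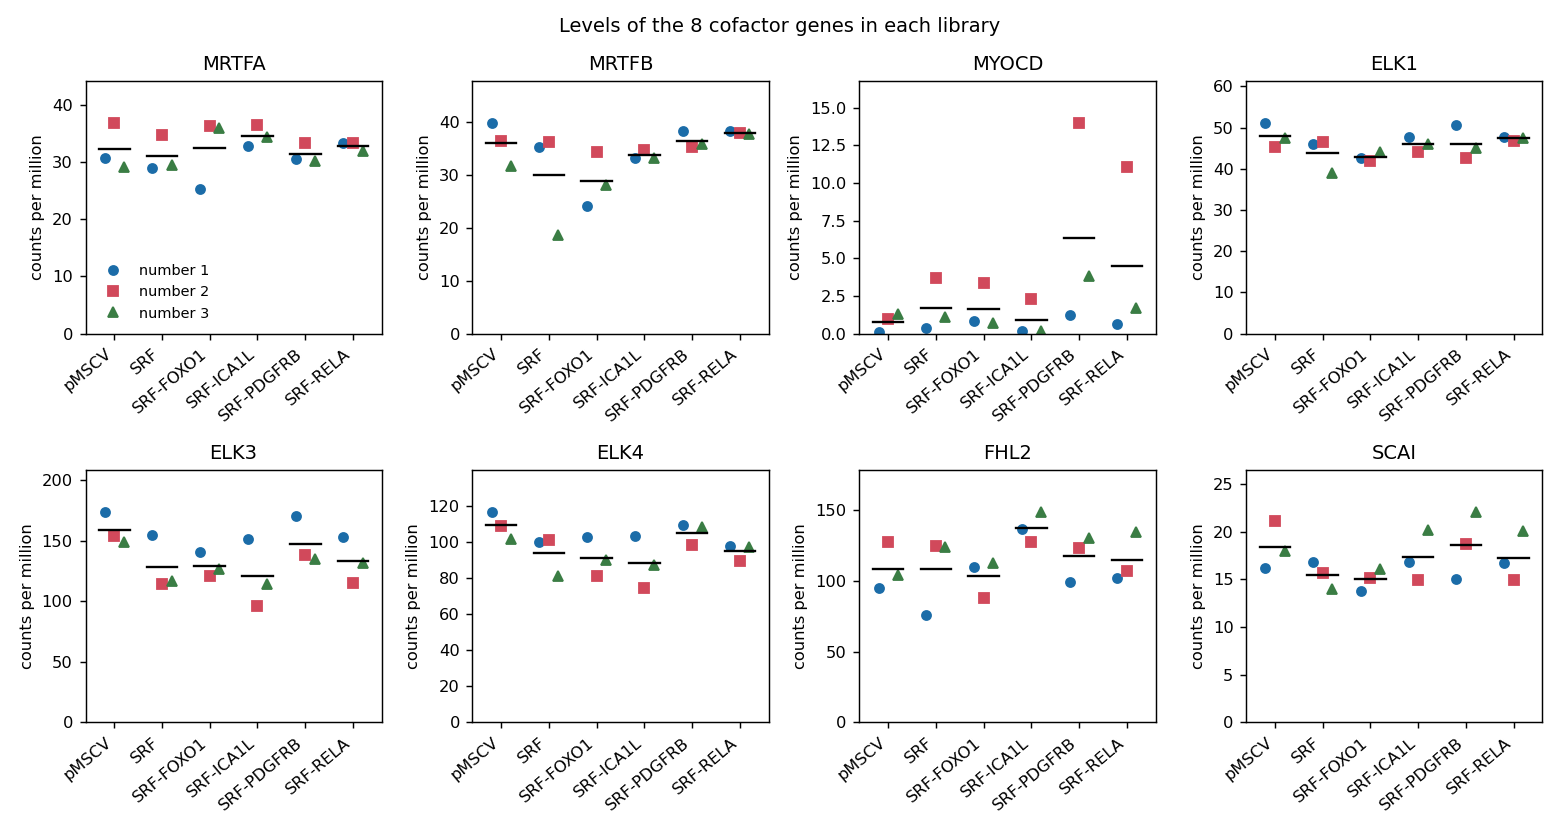
Level (CPM, linear axes from 0) of each of the 8 cofactor genes in the 18 libraries; symbols mark the library number and lines the group means. MYOCD runs from 0.106 to 13.97 with number 2 highest in 5 of 6 groups, while MRTFA stays between 25.3 and 36.8.

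MRTFA (ENSG00000196588, chromosome 22) encodes an actin-regulated SRF coactivator. It held 30.8, 36.8 and 29.1 CPM in the pMSCV libraries numbered 1 to 3 and 29.04, 34.8 and 29.4 CPM in SRF. Its 18 libraries ran from 25.3 CPM in SRF-FOXO1 replicate 1 to 36.8 CPM in pMSCV replicate 2, and every group overlapped pMSCV. Its 5 log2 fold changes against pMSCV were -0.04 to 0.22.

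MRTFB (ENSG00000186260, chromosome 16) encodes the close relative of MRTFA. The pMSCV libraries held 39.8, 36.5 and 31.8 CPM and those of SRF-RELA 38.4, 38.0 and 37.7 CPM. The lowest value, 18.7 CPM, was SRF replicate 3, whose 2 sister libraries held 35.3 and 36.2 CPM. SRF-FOXO1 was also low, at 24.2, 34.4 and 28.1 CPM, but overlapped pMSCV, and at -0.23 on the log2 scale (SE 0.20) it was not called (edgeR adjusted p 0.614).

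MYOCD (ENSG00000141052, chromosome 17) encodes myocardin, the coactivator of heart and smooth muscle, and it was both the scarcest and the most variable member. In pMSCV it had 3, 22 and 37 counts in the libraries numbered 1 to 3, or 0.106, 0.946 and 1.28 CPM. SRF-PDGFRB held 1.25, 13.97 and 3.82 CPM and SRF-RELA 0.622, 11.1 and 1.67 CPM. In both of these fusions the library numbered 2 stood far above the others, and both ranges overlapped that of pMSCV.

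The remaining groups had lower MYOCD maxima with the same library on top. SRF held 0.371, 3.67 and 1.08 CPM, SRF-FOXO1 0.839, 3.33 and 0.694 CPM, and SRF-ICA1L 0.198, 2.29 and 0.167 CPM. SRF-PDGFRB exceeded pMSCV in the fit by 3.05 on the log2 scale (SE 1.34, unadjusted p 0.0385 and adjusted p 1 by edgeR), with a 95% interval of 0.13 to 5.96. SRF-RELA against pMSCV was at 2.62 (edgeR adjusted p 1.00, SE 1.33). These values come from the fit by group, which has no term for the library number. With that term, SRF-PDGFRB exceeded pMSCV by 2.63 (SE 0.55, unadjusted p 0.000265 and adjusted p 0.0871 by edgeR). SRF-RELA exceeded it by 2.00 (SE 0.56, edgeR adjusted p 0.170), and neither was called. In both fusions MYOCD was higher than in pMSCV in 3 of 3 same-numbered pairs.

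ELK1 (ENSG00000126767, chromosome X) encodes a ternary complex factor and had the narrowest range of the 9 members, as a ratio of its highest to its lowest library. Its libraries ran from 38.9 CPM in SRF replicate 3 to 51.1 CPM in pMSCV replicate 1, and its 5 log2 fold changes against pMSCV were -0.10 to 0.05.

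ELK3 (ENSG00000111145, chromosome 12) encodes a ternary complex factor that can repress in the absence of ERK signalling. The pMSCV libraries held 174, 154 and 149 CPM. SRF-ICA1L held 152, 95.8 and 114 CPM, SRF 155, 115 and 116 CPM, and SRF-RELA 153, 115 and 131 CPM. Each of the 15 construct libraries lay below the pMSCV library of the same number, although the ranges overlapped in 4 of the 5 groups.

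The remaining groups were SRF-FOXO1, with 141, 121 and 127 CPM of ELK3, and SRF-PDGFRB, with 170, 138 and 135 CPM. The 5 log2 fold changes of ELK3 against pMSCV were -0.29 to -0.11, and the smallest edgeR adjusted p was 0.540 in the fit by group. With the library number as a term, the smallest was 0.0787, in SRF-ICA1L (log2 fold change -0.31, SE 0.09), and ELK3 was not called. The 5 comparisons share the 3 pMSCV libraries, so their common sign is not 5 separate results.

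ELK4 (ENSG00000158711, chromosome 1) encodes the third ternary complex factor. It held 117, 109 and 102 CPM in pMSCV and 103, 74.6 and 87.1 CPM in SRF-ICA1L, the group with the lowest mean. Construct libraries lay below the same-numbered pMSCV library in 14 of 15 pairs, the exception being SRF-PDGFRB replicate 3. Its log2 fold changes were -0.20 to -0.06, with a smallest edgeR adjusted p of 0.447 by group. With the library number as a term the smallest was 0.229, in SRF-FOXO1. Over the 18 libraries the log2 CPM of ELK3 and ELK4 had a Pearson r of 0.81, a description over libraries that share their numbers and controls.

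FHL2 (ENSG00000115641, chromosome 2), whose promoter windows hold 2 of the CArG boxes printed above, was highest in SRF-ICA1L. That group held 137, 128 and 149 CPM, against 94.8, 127 and 104 CPM in pMSCV. The lowest SRF-ICA1L library exceeded the highest pMSCV library by under 1 CPM when scaled by library totals. On the scale of the fit that gap is wider, since the TMM scaling factors of these libraries were 0.915 and 1.04. The log2 fold change was 0.45 (SE 0.17, 95% interval 0.09 to 0.82), with an unadjusted p of 0.0159 and an adjusted p of 0.319 by edgeR. With the library number as a term it was 0.46 (SE 0.13, edgeR adjusted p 0.0667), also not called.

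In the other groups FHL2 overlapped pMSCV. SRF held 76.1, 125 and 124 CPM, SRF-FOXO1 110, 88.3 and 113 CPM, SRF-PDGFRB 99.4, 124 and 131 CPM, and SRF-RELA 102, 107 and 135 CPM. The log2 difference from SRF to SRF-ICA1L was 0.43 (edgeR adjusted p 0.312, SE 0.17) in the fit by group. With the library number as a term it was 0.45 (SE 0.13, edgeR adjusted p 0.0688), also not called.

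SCAI (ENSG00000173611, chromosome 9) encodes the suppressor of the MRTFs. It held 16.2, 21.1 and 18.01 CPM in pMSCV and 13.8, 15.2 and 16.1 CPM in SRF-FOXO1, just below the vector's lowest library. Its log2 fold change there was -0.22 (edgeR adjusted p 0.521, SE 0.15). With CPM divided by the TMM scaling factors of the fits, SCAI in SRF-FOXO1 overlapped pMSCV. SCAI shares 886 exon bases (6.81% of its exons) with GOLGA1 on the same strand, a gene at 41.3 to 53.1 CPM, so its counts are uncertain.

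The genes around the members were described from lists of known pathway genes, also chosen with earlier results of these data known. In the Ras and ERK arm that acts on the ELKs, 1 of 18 genes was called in the fit by group. It was HRAS, a Ras GTPase, which averaged 14.1 CPM under the vector and 20.3 CPM under SRF-FOXO1 (log2 fold change 0.60, SE 0.13, edgeR adjusted p 0.0430). In that comparison 0.928% of tested genes were called. The HRAS call was lost on leaving out any 1 of the 6 libraries compared (edgeR adjusted p 0.0815 to 0.287). With the library number as a term, edgeR called HRAS, RPS6KA4 and MAPK3 higher there (adjusted p 0.00504, 0.0140 and 0.0367). In SRF-ICA1L against pMSCV it called RPS6KA4 higher and RPS6KA5 lower (adjusted p 0.0307 and 0.0427). Against SRF it called 5 genes of the arm higher in SRF-FOXO1 and 1 in SRF-ICA1L. Of all tested genes, 7.03%, 4.66%, 7.23% and 4.73% were called in these 4 comparisons. The MEF2 factors, the other MADS box proteins of muscle, were called in 0 of 3 tested genes.

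Among 23 tested genes of a list of 26 other SRF-interacting factors, CSRP1 and KLF5 were called in the fit by group. CSRP1 encodes a LIM domain protein of smooth muscle that bridges SRF and GATA factors. It held 160, 227 and 206 CPM in pMSCV, 401, 847 and 506 CPM in SRF-FOXO1, and 488, 818 and 661 CPM in SRF-ICA1L. Both fusions lay wholly above the vector.

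Against the vector, CSRP1 had a log2 fold change of 1.67 (edgeR adjusted p 0.0296, SE 0.33) under SRF-FOXO1 and of 1.85 (edgeR adjusted p 0.0190, SE 0.34) under SRF-ICA1L. In SRF-RELA, at 357, 790 and 481 CPM, it was 1.52 (SE 0.33) and was not called in the fit by group (edgeR adjusted p 0.0983), and was called with the library number as a term (edgeR adjusted p 0.000560). CSRP1 libraries of SRF held 182, 264 and 284 CPM and those of SRF-PDGFRB 206, 247 and 262 CPM, both overlapping the vector. KLF5, a zinc finger factor of smooth muscle, had a log2 fold change of 1.12 (edgeR adjusted p 0.0402, SE 0.24) in SRF-FOXO1. In SRF-FOXO1 the calls of CSRP1 and KLF5 were lost without any 1 of the pMSCV libraries or SRF-FOXO1 replicate 2, with edgeR adjusted p up to 0.197 and 0.221, and KLF5 was at 0.68 on the log2 scale without the last. In SRF-ICA1L the CSRP1 call was lost without any 1 of the pMSCV libraries or SRF-ICA1L replicate 2 (edgeR adjusted p up to 0.132). With the library number as a term, KLF5 was also called in SRF-ICA1L against pMSCV (log2 fold change 0.97, edgeR adjusted p 0.0120). In that fit 4 genes of the list were called higher in SRF-FOXO1 and 3 in SRF-ICA1L, FHL3 in both. PRRX1 was the 1 called lower in each. Of all tested genes 7.03% and 4.66% were called.

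The known targets of the 2 cofactor families did not follow the order of the constructs by mean SRF CPM. Of 21 MRTF-SRF targets (actins, tropomyosins, calponin, transgelin, vinculin and others), SRF-FOXO1 had 4 called higher than in pMSCV. SRF-ICA1L had 2, SRF-RELA had 1, and SRF-PDGFRB and SRF had 0, all in the fit by group. None was called lower. The median log2 fold change of the list was 0.98, 0.60, 0.49, 0.17 and 0.01 in that order, against medians between -0.01 and 0.01 over all tested genes. SRF-FOXO1 thus had the highest median of the list with the lowest mean SRF CPM of the 5 constructs. The SRF group had the lowest median with the highest mean SRF CPM. That contrast between groups was not tested, and the 5 comparisons share their controls. No fusions were called apart in SRF, and the part of SRF that each construct holds was not examined.

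**Figure D4:**
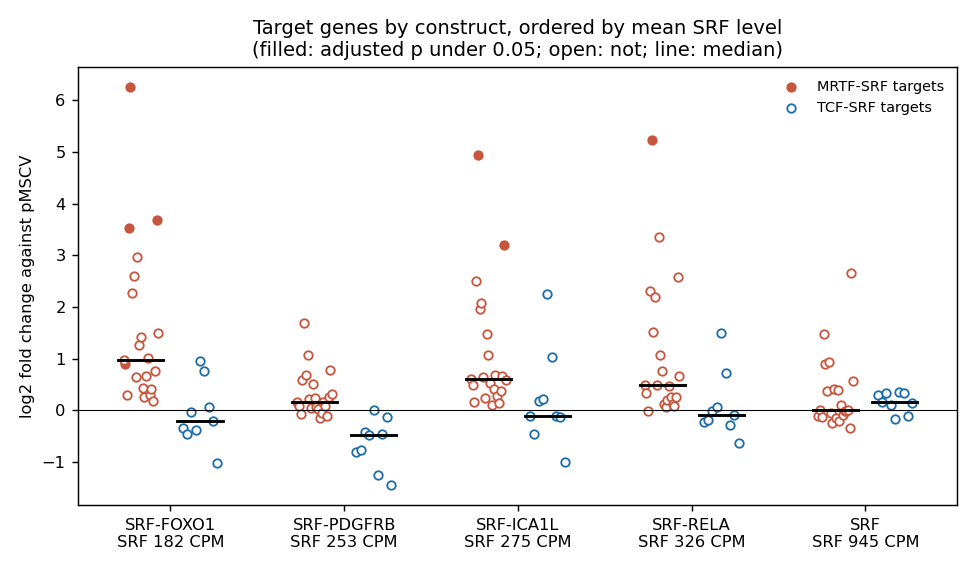
Log2 fold change against pMSCV of 21 MRTF-SRF and 9 TCF-SRF target genes in each construct, placed from left to right by mean SRF level; filled points have an edgeR adjusted p under 0.05 and lines are list medians. MRTF-SRF medians are 0.98 in SRF-FOXO1 and 0.01 in SRF, and no TCF-SRF point is filled in this fit by group.

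ACTG2, the smooth muscle gamma actin, held 1.52, 7.61 and 11.4 CPM in pMSCV. It held 396, 590.3 and 485 CPM in SRF-FOXO1, 165, 200.5 and 211 CPM in SRF-ICA1L, and 140, 384 and 211 CPM in SRF-RELA. These 3 groups lay wholly above the vector and above SRF (2.52, 7.08 and 27.4 CPM). Log2 fold changes against pMSCV were 6.26 (edgeR adjusted p 0.00625, SE 0.89), 4.93 (edgeR adjusted p 0.0140, SE 0.84) and 5.24 (edgeR adjusted p 0.0243, SE 0.85) respectively.

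ACTA2, the smooth muscle alpha actin, was called in SRF-FOXO1 (log2 fold change 3.53, SE 0.61, edgeR adjusted p 0.0187). LMOD1, a smooth muscle leiomodin, was called there (3.69 on the log2 scale, SE 0.66, edgeR adjusted p 0.0212) and under SRF-ICA1L (3.20, SE 0.65, edgeR adjusted p 0.0454). LMOD1 also averaged 22.3 CPM in SRF and 20.5 CPM in SRF-RELA, against 3.65 CPM in pMSCV. With the library number as a term, edgeR called it higher in both (log2 fold change 2.84 and 2.54, adjusted p 0.00341 and 0.00143). The fourth gene of SRF-FOXO1 was ACTB, the cytoplasmic beta actin, at 0.90 (edgeR adjusted p 0.0218, SE 0.17). Actin genes resemble one another closely, so reads could have been split between them.

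Counts of called MRTF-SRF targets depended on single libraries. For ACTG2 itself the edgeR adjusted p reached 0.0623 in SRF-FOXO1 when pMSCV replicate 1 was left out. When pMSCV replicate 2 was left out it reached 0.0886 in SRF-ICA1L and 0.156 in SRF-RELA. No single library left out took its log2 fold change under 4.45 in these 3 groups. In SRF-FOXO1 the count was 0, 2 and 1 without pMSCV replicate 1, 2 and 3, 1 without SRF-FOXO1 replicate 2, and 13 without SRF-FOXO1 replicate 1. In SRF-ICA1L it was 0 without any 1 of the pMSCV libraries and 1 without SRF-ICA1L replicate 2 or 3, and in SRF-RELA it was 0 without any 1 of the pMSCV libraries or SRF-RELA replicate 2. Without the 6 libraries numbered 2, the counts were 2, 1 and 0. Shares of all tested genes called in these fits are not given here. The shifts in count thus cannot be set apart from shifts over all genes.

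Of 9 TCF-SRF targets (FOS, FOSB, JUNB, EGR1, EGR2, EGR3, IER2, MCL1 and NR4A1), edgeR called 0 against pMSCV or against SRF in any construct in the fit by group. With the library number as a term it called EGR2, an immediate early zinc finger factor, higher in each fusion but SRF-PDGFRB against either control. EGR2 held 21.4, 5.97 and 9.97 CPM in pMSCV and 79.6, 41.4 and 46.9 CPM in SRF-ICA1L, which did not overlap (log2 fold change 2.26, edgeR adjusted p 0.125 by group). The list's medians against pMSCV ran from -0.47 in SRF-PDGFRB to 0.17 in SRF. These genes spread widely within each group. FOS, an immediate early transcription factor gene, held 832, 13.6 and 622 CPM in the pMSCV libraries numbered 1, 2 and 3, and 1114, 24.7 and 631 CPM in those of SRF. The library numbered 2 was low in every group.

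Since that split crosses all groups, the members were also compared by library number, in a fit with terms for group and number. The labels do not say what a number marks. Libraries numbered 2 were set against the mean of numbers 1 and 3, and 12.7% of tested genes were called (7.32% higher and 5.38% lower). Of the 9 members 2 were called, MYOCD and MRTFA, both higher in number 2. With so few members this count says little beyond that background.

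MYOCD averaged 5.88 CPM in the 6 libraries numbered 2 and 1.01 CPM in the other 12. The log2 fold change was 2.61 (edgeR adjusted p 0.000130, SE 0.31), and number 2 lay above the mean of the others in 6 of 6 groups, by ratios from 1.36 in pMSCV to 12.6 in SRF-ICA1L. Leaving out any 1 of the 18 libraries kept the call. With the number in the fit, MYOCD was also called lower in SRF-ICA1L than in SRF-PDGFRB (log2 fold change -2.78, edgeR adjusted p 0.00976), where 4.76% of genes were called. MRTFA averaged 35.2 CPM in number 2 and 31.1 CPM in the others (log2 fold change 0.23, SE 0.07, edgeR adjusted p 0.0360), and number 2 was the highest library in 6 of 6 groups.

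The MRTFA call was fragile. It was lost in 11 of 18 fits that left out 1 library, with edgeR adjusted p up to 0.128: without pMSCV replicate 2 or 3, SRF replicate 2, SRF-FOXO1 replicate 2, any SRF-ICA1L library, SRF-PDGFRB replicate 2 or 3, or SRF-RELA replicate 2 or 3. ELK3 was lower in number 2 than the mean of the others in 6 of 6 groups (123 against 143 CPM), at -0.17 on the log2 scale (edgeR adjusted p 0.0653, SE 0.06), and was not called. SRF itself differed little by number (0.06, SE 0.14, edgeR adjusted p 0.789).

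**Figure D5:**
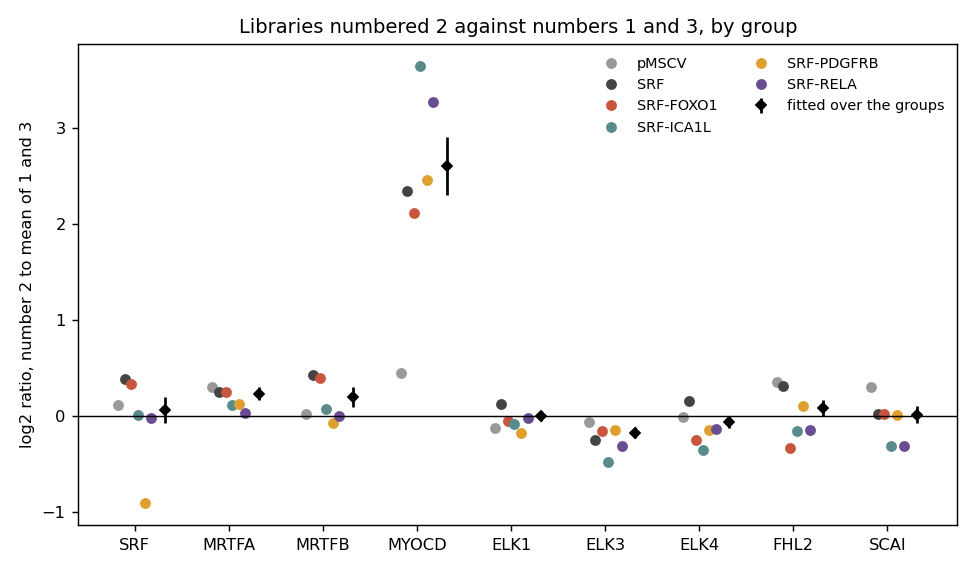
Log2 ratio of the library numbered 2 to the mean of numbers 1 and 3, for each member in each of the 6 groups (coloured points), with the fitted value over the groups and its standard error (black diamonds). MYOCD lies above 0 in 6 of 6 groups with a fitted value of 2.61, and ELK3 lies below 0 in 6 of 6 groups.

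The lists of target genes were read by number too. All 9 TCF-SRF targets were called lower in number 2, with a median log2 fold change of -1.26. FOS averaged 23.0 CPM in number 2 and 635 CPM in the others (log2 fold change -4.70, SE 0.25, edgeR adjusted p 7.48e-08), and EGR1 averaged 122 against 624 CPM (-2.35, SE 0.22, edgeR adjusted p 2.25e-05). Of 21 MRTF-SRF targets 8 were called higher and 1 lower, with a median of 0.38. CNN1, the calponin of smooth muscle, averaged 45.3 against 22.1 CPM (log2 fold change 1.09, SE 0.16, edgeR adjusted p 0.000775), and CCN1, a matricellular growth factor, was the gene called lower (-1.13, SE 0.21, edgeR adjusted p 0.00405).

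Of the Ras and ERK arm 1 of 18 genes was called higher and 0 lower in number 2, and of the other SRF-interacting factors 4 of 23 tested were called higher and 1 lower, where 7.32% and 5.38% of all tested genes were. The gene called lower among the last was KLF4, an immediate early zinc finger factor, at 3.74 CPM in number 2 and 16.9 CPM in the others (log2 fold change -1.98, SE 0.15, edgeR adjusted p 1.33e-06). In bulk RNA, fewer cells that express a gene and less RNA of it per cell cannot be told apart.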

How the data were processed

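The data are 18 RNA-seq libraries of MSC-hTERT cells, 3 in each of 6 groups set by the labels. Per the labels' protocols, total RNA was treated with DNase and made into stranded mRNA libraries for an Illumina NovaSeq instrument. The authors deposited raw counts per Ensembl gene. Per the submitters' processing notes, FastQC 0.11.8, Trimmomatic 0.39, HISAT2 and featureCounts of Subread 2.0.3 were used with GRCh38. The annotation release and the strand setting are not given in the sources used here.

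Symbols were matched for 61369 of 61487 identifiers. Genes passing filterByExpr (minimum count 10) were scaled by TMM and fitted with edgeR 4.0.16 in R 4.3.3 (quasi-likelihood, robust, 1 term per group, 12 residual degrees of freedom, common biological coefficient of variation 0.225). Tests were two-sided F tests with Benjamini-Hochberg adjustment over 18544 genes, called under 0.05. A standard error is the absolute log2 fold change divided by the square root of F. The fit by group was tested on simulated counts. These were drawn without any effect of the library number, so that test does not cover such an effect. CPM values use library totals without TMM factors. Totals ran from 19362319 to 29806771 counts. Correlations used log2 CPM with a prior count of 2. Members, lists and alternatives were chosen with earlier results of these data known. Genes named are the members, the partner genes, up to 3 called genes per list, direction and comparison by smallest p, and the 3 genes most correlated with each member. CSRP1 in further groups, FOS, EGR1, CNN1, CCN1 and KLF4 were named after their values were seen. Alternatives were other scaling, DESeq2 1.42.0, other count filters, only the groups compared, a replicate block, and libraries left out. Counts of called targets under these settings were added after seeing the data. One list of pathway genes is not reported here.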

Additional observations from a re-analysis of the deposited data

How the results depend on the processing

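No result changed sign while called. Of 172 fits of SRF against pMSCV or SRF, 162 kept the call and direction, and of 2031 fits of cofactors between groups 1 gave a call. With only the groups compared in the fit, SRF was no longer called in SRF-PDGFRB against pMSCV (log2 fold change 2.04), nor in SRF-FOXO1 (-2.33), SRF-PDGFRB (-1.94) or SRF-RELA (-1.51) against SRF, which left 0 members called in each. Without the 6 libraries numbered 2, 0 members were called in SRF-PDGFRB (-1.58) and SRF-RELA (-1.40) against SRF. These fits hold fewer libraries. Leaving out 1 library gave SRF log2 fold changes of 1.49 to 1.79 with 0 to 1 members called in SRF-FOXO1 against pMSCV, and of -1.70 to -1.38 with 0 to 1 members called in SRF-RELA against SRF. By library number, 1 to 3 members were called on leaving out 1 library (1 is MYOCD alone, and ELK3 enters in the other direction), and 1 with at least 10 counts in every library, where MYOCD is not tested. Scaling by total count moved MRTFA out (log2 fold change 0.18, edgeR adjusted p 0.0792) and ELK3 in (-0.22, edgeR adjusted p 0.0247), and DESeq2 also called ELK3 (-0.16, adjusted p 0.0439).

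Of 45 same-numbered pairs of libraries from different groups, 44 had deviations correlated over 0.1 (median 0.38, against -0.18 for 90 other pairs). SRF replicate 1 with SRF-FOXO1 replicate 1 was below it, at 0.0875. With the replicate block, 1 member was called in SRF-ICA1L against SRF-PDGFRB, MYOCD (log2 fold change -2.78, SE 0.55, edgeR adjusted p 0.00976, against 0.457 without it), where 4.76% of genes were called. MRTF-SRF targets called against pMSCV with the block were 1 in SRF (LMOD1), 13 in SRF-FOXO1, 9 in SRF-ICA1L and 5 in SRF-RELA. Of all tested genes 0.243%, 7.03%, 4.66% and 0.971% were called there. TCF-SRF targets called in the same way were 1 in SRF-FOXO1, 2 in SRF-ICA1L and 1 in SRF-RELA. These were EGR2 at 1.10, 2.40 and 1.65 on the log2 scale (edgeR adjusted p 0.00978, 4.87e-05 and 0.00143) and, in SRF-ICA1L, EGR3 at 1.16 (0.0372). Against SRF the block called EGR2 in the same groups (1.29, 2.59 and 1.84; edgeR adjusted p 0.00401, 2.61e-05 and 0.000682), and EGR3 (-1.70, 0.0120) and IER2 (-0.68, 0.0386) as lower in SRF-PDGFRB. MRTF-SRF targets called higher against SRF with the block were 14 in SRF-FOXO1, 7 in SRF-ICA1L and 2 in SRF-RELA, and 1 was lower in SRF-PDGFRB. Of all tested genes 7.23%, 4.73%, 1.73% and 2.34% were called in these comparisons with SRF. With DESeq2 the MRTF-SRF counts against pMSCV were 1 in SRF, 13 in SRF-FOXO1, 6 in SRF-ICA1L and 4 in SRF-RELA. By group alone, DESeq2 also called 1 TCF-SRF target in SRF-ICA1L against pMSCV. Shares of all genes called by DESeq2 are not given here. ACTG2 against pMSCV had an edgeR adjusted p of 0.0723 in SRF-FOXO1, 0.0888 in SRF-ICA1L and 0.218 in SRF-RELA with only the groups compared, and of 0.240, 0.330 and 0.758 without the libraries numbered 2. The cause of these differences was not tested. With TMM factors in the CPM, 4 of 54 group means moved by at least 1 SD. Depth limits MYOCD most, with 3 to 407 counts per library.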

Other observations

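The genes whose log2 CPM followed each member most closely over the 18 libraries were taken over all tested genes, as a description with no test. These libraries share groups and numbers, which can shape such likeness. For SRF they were GZMA (Pearson r 0.83), GPR183 (0.80) and EPM2A (0.80), the first 2 at no more than 5.89 CPM. For MYOCD they were FBXL13 (0.88), PDE4B (0.86) and TNIP1 (0.85). MRTFA was most like SSC5D (0.93), GLIS2 (0.92) and PCDH10 (0.90), and MRTFB was most like ARL10 (0.98), AFF4 (0.97) and TENM3 (0.96). For ELK1 they were PFKFB2 (0.87), SNX30 (0.87) and ENSG00000222022 (0.86), for ELK3 TCF7 (0.95), APBA1 (0.93) and RGS16 (0.93), and for ELK4 SOX4 (0.93), ZNF669 (0.92) and ZFP91 (0.91). FHL2 was most like ISLR (0.81), CPA4 (0.81) and ENSG00000277749 (0.78), and SCAI was most like EPM2AIP1 (0.82), IQSEC1 (0.82) and EIF2AK4 (0.78). Between members, the closest pairs were ELK3 with ELK4 (0.81) and MRTFB with ELK1 (0.80).

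Tested genes with a CArG box in the promoter window numbered 200 of 12154 with a window. Against pMSCV, 6 of the 200 were called higher in SRF-FOXO1 (3% against 0.905% of all 12154), 4 in SRF-ICA1L (2% against 0.527%) and 4 in SRF-RELA (2% against 0.189%). In SRF and in SRF-PDGFRB the 1 such gene was SRF itself, which is also among the 6, 4 and 4 and whose counts include the construct. Besides SRF, ACTG2 and RPE65 were among those called in each of the 3 fusions, ACTA1 in SRF-FOXO1 and SRF-RELA, ACTC1 and GARS1 in SRF-FOXO1, and GPR183 in SRF-ICA1L. These genes were named after their values were seen.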
